A study of Homo sapiens with 6 samples.

Results

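The genes described here are the Rab GTPases and the synaptotagmin-like proteins and related effectors that bind them. A row of the deposited table counted as a member where its Ensembl identifier mapped to a protein-coding symbol made of RAB, digits and at most 1 letter, or to SYTL1 to SYTL5, MLPH, MYRIP or RILP. This gave 71 of the 40488 genes in the table, 63 of them Rab GTPases and 8 effectors. The pattern also matched RAB1C, which the annotation lists as a processed pseudogene and which was left out. RNA was sequenced from SCC90, an established HPV16-positive cell line grown from a tumor of the base of the tongue. All cells carried siRNA for 72 h: 3 libraries came from cells given a scrambled control (siCTRL) and 3 from cells given siRNA against ΔNp63 (siDNp63), the TP63 isoform made in basal squamous epithelium. The labels give 10 nM of ΔNp63 siRNA, the methods text gives another concentration, and neither says whether the replicates were separate cultures, so each p-value reflects the scatter of the libraries alone. Knockdown was by transient transfection of 1 cell line, so each group is a bulk population in which fewer cells of a type and less RNA per cell cannot be told apart.

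Rab proteins are small GTPases that mark membranes. In the GTP-bound form each sits on its own compartment and recruits effectors, such as motors, tethers and fusion factors, and in the GDP-bound form it is taken back to the cytosol. Exchange factors (GEFs) load GTP, GTPase-activating proteins (GAPs) end the active state, and an escort protein, a prenyl transferase and GDP dissociation inhibitors (GDI) place the proteins on membranes and remove them. The synaptotagmin-like proteins (Slp, encoded by SYTL1 to SYTL5) and the Slac2 proteins (MLPH, MYRIP and EXPH5) bind RAB27A and RAB27B. SYTL4 also binds RAB3 forms and RAB8A. These proteins act in the docking and transport of secretory granules, exosomes and melanosomes. EXPH5 lies outside the members and is given with the other effectors. RILP binds RAB7A and links late endosomes to the dynein motor. In squamous epithelium these systems serve secretion, integrin and junction recycling, and lysosomal turnover.

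The genome sequence before the start sites is shown for the members with the largest fall and the largest rise, RAB7B and SYTL5, and for RAB3B, the Rab GTPase with the largest rise among those called. The 250 bases upstream of an annotated start are from RefSeq (GRCh38.p14), 5′ to 3′ in the direction of transcription, and none of them lies in an annotated exon. The windows are chr1:205994458-205994707 on the minus strand before an inner start of RAB7B, chrX:38006303-38006552 on the plus strand before SYTL5, and chr1:51990701-51990950 on the minus strand before RAB3B. Capitals mark a GC box, GGGCGG on either strand.
RAB7B: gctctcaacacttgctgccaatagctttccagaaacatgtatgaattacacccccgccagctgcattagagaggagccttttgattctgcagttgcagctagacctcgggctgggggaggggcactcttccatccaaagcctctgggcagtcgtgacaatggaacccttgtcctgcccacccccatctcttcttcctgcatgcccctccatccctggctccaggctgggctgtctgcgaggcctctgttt
SYTL5: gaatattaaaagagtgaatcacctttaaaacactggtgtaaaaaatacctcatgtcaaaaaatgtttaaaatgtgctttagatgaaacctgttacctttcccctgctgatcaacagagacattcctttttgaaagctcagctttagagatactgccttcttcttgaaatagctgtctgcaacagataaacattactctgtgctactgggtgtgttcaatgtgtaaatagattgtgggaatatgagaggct
RAB3B: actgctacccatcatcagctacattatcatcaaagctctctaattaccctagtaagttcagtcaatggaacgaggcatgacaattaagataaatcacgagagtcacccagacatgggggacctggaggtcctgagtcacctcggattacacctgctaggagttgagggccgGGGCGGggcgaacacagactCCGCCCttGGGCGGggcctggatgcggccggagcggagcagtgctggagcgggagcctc
The RAB3B window held 3 GC boxes, and the RAB7B and SYTL5 windows held 0. The GC content was 56.8% in the RAB7B window, 36% in the SYTL5 window and 56.8% in the RAB3B window. Over windows that also take in the first 50 transcribed bases, RefSeq start sites were at hand for 57 of the 71 members. The GC box was present, on either strand, for 45 of these 57 genes (78.9%), against 48.3% of 27305 genes with such a window. Counted per window, the shares were 67.9% and 45%. The members are protein-coding by rule, while the 27305 genes were not filtered by gene type, so the sets are not alike. The members' windows were also richer in GC, at a median of 63.2% over 84 windows against 58.7% over 35116. The half-site of the p53 family, the motif bound by p63, was found for 4 of 57 members (7.02%), against 8.06% of all genes. The AP-1 site TGACTCA was found for 7 members (12.3%, against 6.05%), the E-box CACGTG for 7 (12.3%, against 8.77%) and the CCAAT box for 19 (33.3%, against 39.7%). These motifs, none of which contains another, were picked after the windows had been read, and a match is a description of letters.

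TP63 itself checked the labels. Its normalized read count was 42319, 44204 and 43700 in siCTRL replicates 1 to 3 and 15520, 14474 and 15414 in siDNp63 replicates 1 to 3, a log2 fold change of -1.52 (SE 0.04, adjusted p = 7.59e-07). Every siDNp63 library was below every control library, so the targeted gene went with the labels in all 6. Counts per gene do not separate ΔNp63 from the other TP63 isoforms. Library totals lay between 35716277 and 52598831 estimated counts. All 8 epithelial markers (KRT5, KRT14, KRT17, KRT8, KRT18, EPCAM, CDH1 and ITGB4) had a mean over 1 TPM across the 6 libraries (a level scaled for transcript length and library size), and their summed level was 1932 to 2007 TPM in siCTRL and 2763 to 2787 TPM in siDNp63. Not all followed the sum, since ITGB4 was called lower (log2 fold change -0.83, adjusted p = 0.00684), KRT5 was not called (-0.18) and KRT14 had 0.52 TPM in siCTRL. The summed level of 6 leukocyte markers was 6.18 to 7.37 TPM in siCTRL and 3.89 to 4.55 TPM in siDNp63, with PTPRC, ITGAM and LYZ under 1 TPM. For 6 fibroblast and endothelial markers it was 6.61 to 9.20 TPM in siCTRL and 8.90 to 12.1 TPM in siDNp63, with PDGFRB at 0, PECAM1 up from a mean of 0.61 to 3.25 TPM (adjusted p = 2.40e-05), VWF up 1.84-fold and COL1A1 at 6.52 and 5.74 TPM. For 7 melanocyte markers it was 14.3 to 17.3 TPM in siCTRL and 10.3 to 12.4 TPM in siDNp63. TYR, TYRP1, DCT and SLC45A2 were under 1 TPM. MITF made up most of the sum, with 10.1 TPM in siCTRL and 7.68 TPM in siDNp63. It was called lower (log2 fold change -0.41, adjusted p = 0.00309). MLANA, at 2.69 TPM in siCTRL and 1.94 TPM in siDNp63, was also called lower (adjusted p = 0.0392). PMEL, at 2.80 and 1.53 TPM, was not called. The part of these shifts in the results was not tested. In a principal component analysis siDNp63 replicate 1 stood apart from the other two on the second component, at 39.1 against -25.6 and -24.8, with siCTRL between 2.64 and 5.63. In that library 6 of the 63 members tested lay more than 0.5 (log2) from the mean of the other two: RAB11B and RAB40C below it, and RAB7B, SYTL3, RAB40A and RAB43 above it.

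Most members tested moved by small amounts, some up and some down. Of the 71 members, 63 had enough counts to be tested, and a call means an adjusted p under 0.05 in edgeR's quasi-likelihood test over 17257 genes. Of these 63, 20 were higher in siDNp63, against a background of 18.4% of all genes tested, and 8 were lower, against a background of 15.2%. In either direction 44.4% of the members were called, against 33.6% of all genes. Scaling by library size alone gave 14 higher and 13 lower, so that 51.9% of the calls were higher instead of 71.4%. Of all genes 13.5% were then called higher and 23.9% lower, and the median of all genes moved from -0.02 to -0.11. The median log2 fold change of the members was 0.015, beside -0.02 over all genes tested. Of the 28 called members, 17 changed by less than 0.5 on the log2 scale. At an absolute log2 fold change over 1, 2 members were higher, SYTL5 and MLPH (background 2.35%), and 1 was lower, RAB7B (background 1.71%). For 36 of the 63 members every siDNp63 value lay outside the siCTRL range on 1 side, which held for 49.4% of all genes. Leaving out siDNp63 replicate 1 gave 21 higher and 10 lower, with all 28 calls kept. Of all genes 20.5% were then higher and 17.9% lower.

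**Figure D1:**
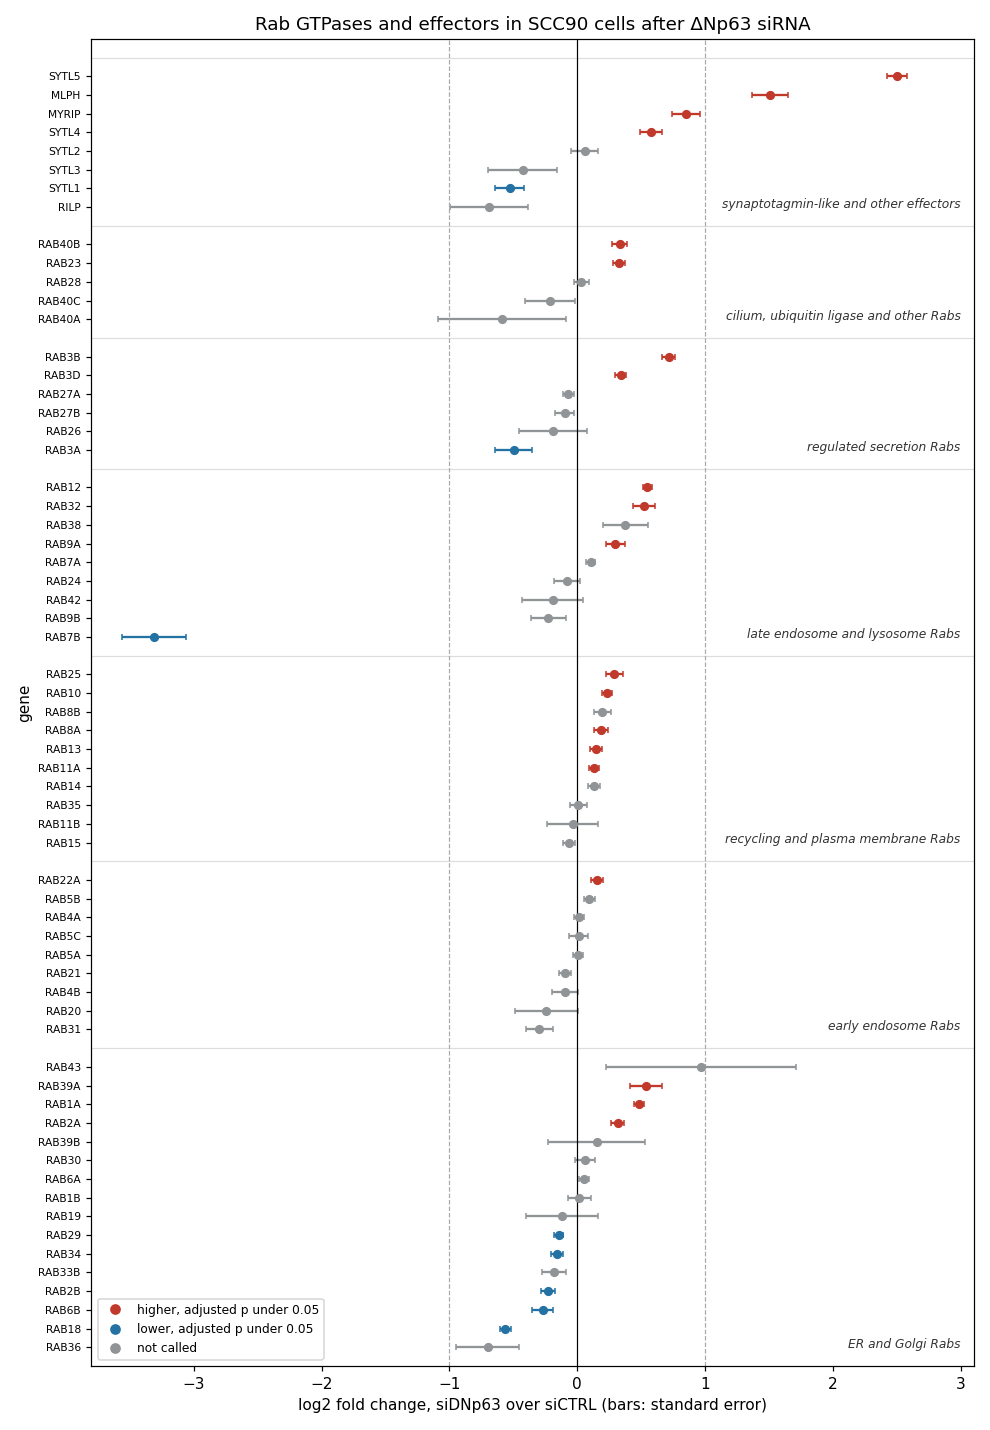
Log2 fold change of siDNp63 over siCTRL (x axis, bars are the standard error, 3 libraries per group) for the 63 members tested (y axis), grouped by role, with dashed lines at a log2 fold change of -1 and 1. Most points lie within 0.5 of 0, SYTL5 at 2.50 and MLPH at 1.51 stand to the right, and RAB7B at -3.31 stands alone to the left.

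Among the effectors, the Slp and Slac2 genes carried the largest rises. SYTL5, which encodes Slp5 (ENSG00000147041, X chromosome, 38006553 to 38128819, GRCh38), had normalized counts of 271, 301 and 285 in siCTRL and 1753, 1544 and 1544 in siDNp63. Every siDNp63 library was thus well above every siCTRL library, with a 5.65-fold rise (log2 fold change 2.50, SE 0.08, adjusted p = 1.42e-06). In order of log2 fold change it was number 31 from the top of the 17257 genes. MLPH, melanophilin, which joins RAB27A to the myosin Va motor (ENSG00000115648, chromosome 2, 237485428 to 237555322), had 85.9, 79.0 and 83.4 normalized counts in siCTRL and 265, 244 and 200 in siDNp63. The lowest siDNp63 library lay above the highest control library, and the rise was 2.85-fold (log2 fold change 1.51, SE 0.14, adjusted p = 0.000142).

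MYRIP, the Slac2 protein that joins RAB27A to myosins VIIa and Va on granules, had 160, 177 and 145 normalized counts in siCTRL and 306, 285 and 279 in siDNp63. The groups did not overlap and the rise was 1.80-fold (log2 fold change 0.85, SE 0.11, adjusted p = 0.000761). SYTL4, granuphilin or Slp4, which docks secretory granules at the plasma membrane, had 555, 540 and 594 normalized counts in siCTRL and 936, 801 and 784 in siDNp63. This was a 1.49-fold rise (log2 fold change 0.58, SE 0.09, adjusted p = 0.00165). SYTL1 went the other way. Its normalized counts were 183, 173 and 196 in siCTRL and 128, 121 and 134 in siDNp63, all below the controls, at a log2 fold change of -0.53 (SE 0.11, adjusted p = 0.00893). In the limma test on log2(TPM + 1) neither SYTL4 nor SYTL1 was called. SYTL2 (log2 fold change 0.06, adjusted p = 0.70) and SYTL3 (-0.43, SE 0.27, adjusted p = 0.27) overlapped between the groups, and the sign for SYTL2 turned with library size alone and on the TPM scales.

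Of the 7 Slp and Slac2 genes among the members, 4 were therefore higher and 1 lower (71.4% called, background 33.6%). Their median log2 fold change was 0.58. RAB27A and RAB27B themselves were not called. RAB27A, the RAB27 form required for melanosome and granule transport, had 1348, 1328 and 1368 normalized counts in siCTRL and 1304, 1269 and 1284 in siDNp63, slightly lower in each library, at a log2 fold change of -0.07 (SE 0.04, adjusted p = 0.28). RAB27B had 2053, 2033 and 2352 in siCTRL and 2127, 1865 and 2023 in siDNp63, with the groups overlapping (-0.10, SE 0.07, adjusted p = 0.34). The sign of both depended on the handling of transcript length, and for RAB27A the value was 0.11 with length offsets. With library size alone RAB27A was called lower. RILP was low throughout, with 17.4, 13.5 and 18.0 normalized counts in siCTRL and 10.2, 8.56 and 11.4 in siDNp63 (-0.69, SE 0.30, adjusted p = 0.12), and was called on both TPM scales.

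**Figure D2:**
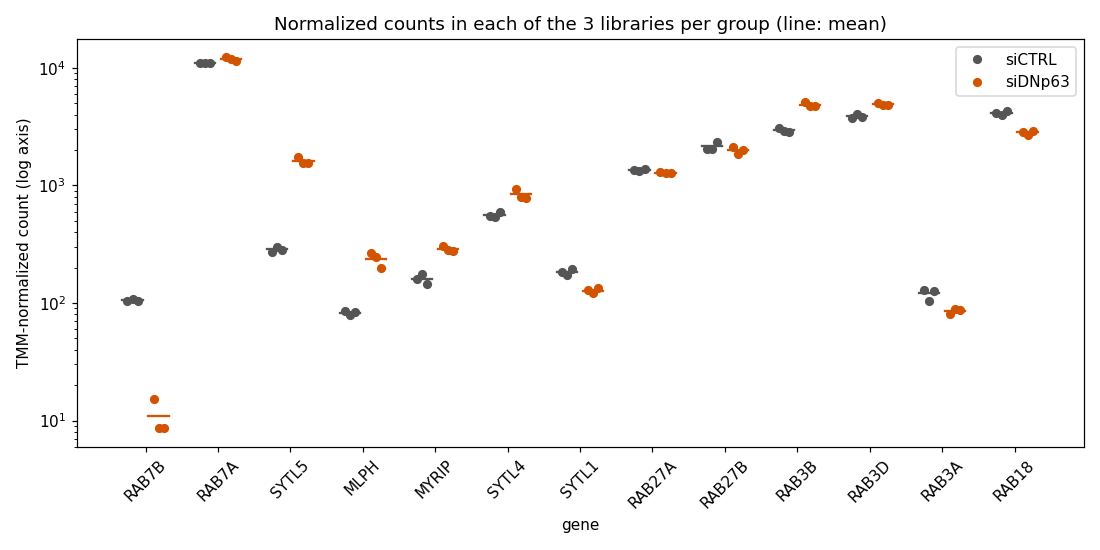
Normalized counts (y axis, log scale) of 13 members (x axis) in each library, with siCTRL in grey, siDNp63 in orange and lines at the mean of 3 libraries. SYTL5, MLPH and MYRIP lie higher in all siDNp63 libraries, RAB7B falls from over 100 counts to between 8.56 and 15.4, and RAB7A, RAB27A and RAB27B lie close together in both groups.

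The late endosome and lysosome Rabs held the largest fall. RAB7B, a relative of RAB7A that acts between late endosomes and the Golgi (ENSG00000276600, chromosome 1, 205976740 to 206003461), had 103, 109 and 104 normalized counts in siCTRL. In siDNp63 it had 15.4, 8.56 and 8.58. No siDNp63 library came near the controls, and the fall was 9.91-fold (log2 fold change -3.31, SE 0.25, adjusted p = 4.94e-05). Only 2 of the 17257 genes had a lower log2 fold change. A fall this deep rests on few counts in siDNp63, and its size depended on the scale, since log2(TPM + 1), which understates the change of low genes, gave -1.15 and leaving out siDNp63 replicate 1 gave -3.60. RAB7A, the general late endosome GTPase that drives fusion with lysosomes, had 11097, 11080 and 10940 normalized counts in siCTRL and 12289, 11837 and 11477 in siDNp63. It was thus slightly higher in all 3 libraries without passing the test (log2 fold change 0.10, SE 0.04, adjusted p = 0.070), and it was called with DESeq2 and with length offsets.

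Of the 9 genes in this group 3 were higher and 1 was lower (44.4% called, background 33.6%). RAB12, which acts in lysosomal degradation of recycling receptors and in autophagy, had 2444, 2479 and 2472 normalized counts in siCTRL and 3691, 3532 and 3590 in siDNp63. The spread within each group was small beside the difference (log2 fold change 0.55, SE 0.04, adjusted p = 2.47e-05). RAB32, which with RAB38 serves melanosomes and other lysosome-related organelles, had 484, 534 and 493 in siCTRL and 718, 789 and 663 in siDNp63 (0.52, SE 0.09, adjusted p = 0.00257). RAB38 was low and overlapped between the groups (0.38, SE 0.17, adjusted p = 0.14). RAB9A, which returns receptors from late endosomes to the Golgi, rose by 0.30 (SE 0.07, adjusted p = 0.016). That call was kept in 9 of 16 alternative analyses. RAB9B, RAB24 and RAB42 had log2 fold changes between -0.23 and -0.08 and were not called.

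The regulated secretion Rabs split within 1 subfamily. RAB3B, which attaches to secretory vesicles (ENSG00000169213, chromosome 1, 51907956 to 51990700), had 3108, 2884 and 2863 normalized counts in siCTRL and 5082, 4714 and 4757 in siDNp63. This was the largest rise among the Rab GTPases called, 1.64-fold (log2 fold change 0.72, SE 0.05, adjusted p = 3.02e-05). RAB3D, the form of exocrine granules, had 3781, 4094 and 3793 in siCTRL and 5078, 4823 and 4869 in siDNp63 (0.34, SE 0.05, adjusted p = 0.000869). RAB3A, best known from synaptic vesicles, fell from 130, 105 and 127 to 80.6, 89.0 and 86.8 (-0.50, SE 0.14, adjusted p = 0.0304). All 3 forms separated the groups, as held for 49.4% of all genes, with 2 upward and 1 downward. The RAB3A call was kept in only 8 of 16 alternatives. Of the 6 regulated secretion Rabs tested, 2 were higher and 1 was lower (50% called, background 33.6%). RAB26 was not called (-0.19, SE 0.27), and RAB37 and RAB3C had too few counts to be tested.

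All 5 calls among the 10 recycling and plasma membrane Rabs (50% called, background 33.6%) were rises, and all were small. RAB25, the RAB11 form of epithelial cells that recycles integrins, had 5097, 5375 and 5414 normalized counts in siCTRL and 5817, 6970 and 6615 in siDNp63 (log2 fold change 0.29, SE 0.07, adjusted p = 0.0124). RAB10, which carries basolateral cargo, had 8238, 8514 and 8610 in siCTRL and 10252, 9495 and 10063 in siDNp63 (0.23, SE 0.04, adjusted p = 0.00403). RAB8A, a GTPase of polarized transport and of the cilium, rose by 0.18 (adjusted p = 0.0371), RAB13 of tight junctions by 0.15 (adjusted p = 0.0438) and RAB11A of recycling endosomes by 0.13 (adjusted p = 0.0328). These last 3 calls were kept in 5, 3 and 8 of 16 alternatives, and with library size alone only RAB10 of the 5 was called. RAB14 missed the threshold (0.13, SE 0.05, adjusted p = 0.0596) and was called in 4 of 16 alternatives. RAB11B, with 743, 630 and 659 normalized counts in siCTRL, had 439 in siDNp63 replicate 1 but 753 and 785 in the other two, so that replicate 1 lay below the controls and the others above them.

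The ER and Golgi Rabs held 3 called rises and 5 called falls among 16 tested (50% called, background 33.6%). RAB1A, needed for transport from the ER to the Golgi, had 5462, 5332 and 5495 normalized counts in siCTRL and 7462, 7871 and 7427 in siDNp63. It rose in all libraries (log2 fold change 0.48, SE 0.04, adjusted p = 7.02e-05). RAB2A, of the same route, had 3414, 3286 and 3401 in siCTRL and 4516, 4028 and 4049 in siDNp63 (0.32, SE 0.05, adjusted p = 0.00246). RAB39A, counted in this group here although linked to phagosomes and autophagy, rose from 109, 121 and 125 to 184, 174 and 157 (0.54, SE 0.12, adjusted p = 0.0119).

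The largest fall called in this group was that of RAB18, which sits on the ER and on lipid droplets. It had 4174, 4016 and 4320 normalized counts in siCTRL and 2864, 2714 and 2893 in siDNp63, a 1.48-fold fall with a narrow spread in both groups (log2 fold change -0.56, SE 0.04, adjusted p = 6.00e-05). The other 4 falls called were smaller. RAB2B had 1963, 2126 and 2101 in siCTRL and 1831, 1657 and 1794 in siDNp63 (-0.23, SE 0.06, adjusted p = 0.0146), the opposite direction to its paralogue RAB2A. RAB29, a GTPase of the trans-Golgi, had 3161, 3133 and 3036 in siCTRL and 2855, 2822 and 2758 in siDNp63 (-0.15, SE 0.04, adjusted p = 0.0184). These 2 falls were lost with length offsets.

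RAB6B, the RAB6 form enriched in neurons, had 523, 543 and 563 normalized counts in siCTRL and 451, 484 and 417 in siDNp63 (-0.27, SE 0.08, adjusted p = 0.0385). RAB34, of the Golgi and the cilium, had 1283, 1303 and 1330 in siCTRL and 1197, 1189 and 1126 in siDNp63 (-0.16, SE 0.05, adjusted p = 0.0418). Both separated the groups by a margin close to the spread within them, and their calls were kept in 6 and 7 of 16 alternatives. RAB36 was not called although the groups did not overlap (-0.70, SE 0.25, adjusted p = 0.0625), and 5 of 16 alternatives called it. RAB43 had the largest SE of all members tested (0.97, SE 0.74), with 155, 113 and 11.3 in siCTRL and 333, 130 and 98.2 in siDNp63, and 78.4% of its 31-base sequences in the annotation also occur in the readthrough gene ISY1-RAB43, so reads could be split between both.

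Of the 9 early endosome Rabs tested, only RAB22A was called (11.1%, background 33.6%). RAB22A had 2552, 2550 and 2687 normalized counts in siCTRL and 2978, 2765 and 2920 in siDNp63 (log2 fold change 0.15, SE 0.04, adjusted p = 0.0318). That call was kept in 8 of 16 alternatives. The RAB5 and RAB4 genes, the core regulators of early endosome fusion and fast recycling, lay between -0.09 and 0.10. RAB31 was lower in each siDNp63 library without passing the test (-0.30, SE 0.10, adjusted p = 0.0617), and 4 of 16 alternatives called it. Among the remaining Rabs, RAB23, which restrains Hedgehog signaling, had 1461, 1487 and 1519 in siCTRL and 1941, 1823 and 1840 in siDNp63 (0.33, SE 0.05, adjusted p = 0.00111). RAB40B, a Rab that assembles a ubiquitin ligase, had 1063, 989 and 1050 in siCTRL and 1240, 1370 and 1295 in siDNp63 (0.33, SE 0.06, adjusted p = 0.00356). Both separated the groups clearly. RAB40C, with 286, 311 and 252 in siCTRL, had 170 in siDNp63 replicate 1 against 297 and 260, and was not called (-0.22, SE 0.20).

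On the TPM scale, 8 members had a mean of at least 100 TPM over the libraries, 35 of at least 10 TPM, 52 of at least 1 TPM and 19 of less. The summed level of the 63 Rab GTPases was 2858 ± 38.7 TPM in siCTRL and 3078 ± 8.08 TPM in siDNp63 (SD, n = 3). That of the 8 effectors was 21.9, 22.9 and 18.7 TPM in siCTRL and 41.2, 33.6 and 35.9 TPM in siDNp63. The effectors were thus scarce beside the GTPases in both groups. RAB7A and RAB11A led, with RAB7A at 335, 341 and 339 TPM in siCTRL and RAB11A at 330, 321 and 350 TPM, ranges that overlap. The 8 members that were not tested were RAB17, RAB33A, RAB41, RAB3C, RAB37, RAB6C, RAB6D and RAB44, none with more than 14.1 normalized counts in a library. RAB6C and RAB6D share 69% and 60.6% of their 31-base sequences with other genes. Among the members tested other than RAB43, the largest such shares were 41.3% for RAB4B, 40.7% for RAB24 and 29.4% for RAB5C. They were 27.4% for RAB13 and 24.2% for RAB6A. Of these genes only RAB13 was called, and reads of each could be split with other genes.

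**Figure D3:**
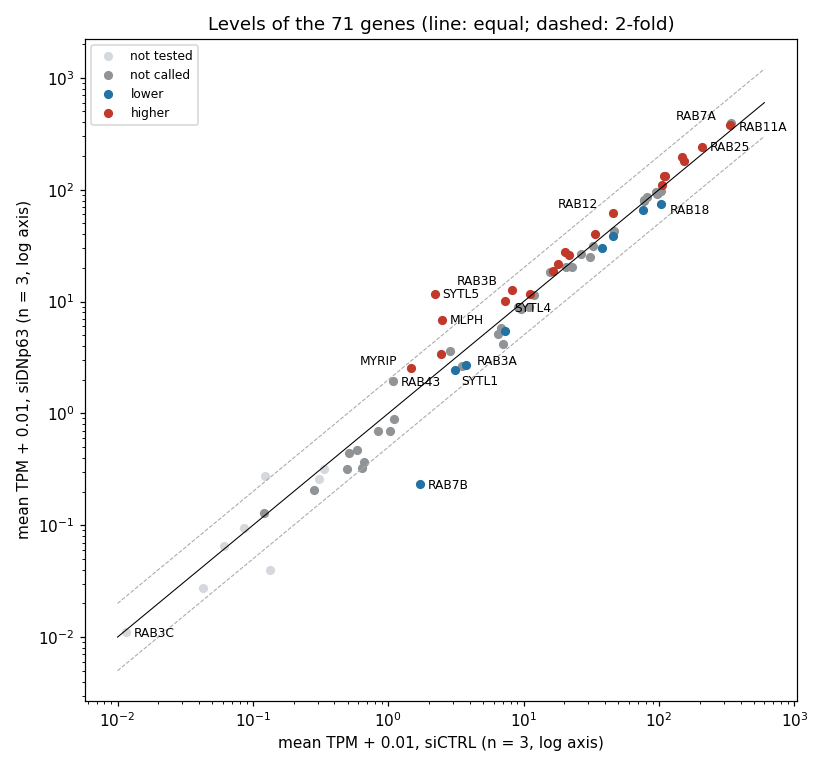
Mean TPM + 0.01 of each of the 71 members in siCTRL (x axis) and siDNp63 (y axis), both on log scales and over 3 libraries, colored by call, with the line of equality and dashed lines at 2-fold. SYTL5 and MLPH lie above the upper dashed line and RAB7B below the lower one, as do the untested RAB33A (above) and RAB37 (below) at levels under 1 TPM, while the members at the top right, led by RAB7A and RAB11A, follow the line of equality closely.

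The makeup of subfamilies was compared on the TPM scale. For 37 shares in 14 subfamilies, each paralogue's TPM was taken as a percentage of its subfamily's sum, and the groups were compared by an exact two-sided permutation test, which with 3 against 3 cannot give a p below 0.1 (smallest adjusted p 0.161). No share therefore passed a test, and for 23 shares the p was 0.1. Where a subfamily was a pair of genes, its shares mirrored each other and gave the same p. Each of them still entered the count and the adjustment. A share also moves when another gene of its sum moves. SYTL5 was 12.1%, 12.8% and 14.9% of the SYTL sum in siCTRL and 44.3%, 43.4% and 41.8% in siDNp63, so that its mean share went from the lowest but SYTL3 to the highest. SYTL1 went from 19.1% ± 3.35 to 9.04% ± 1.71 (SD, n = 3). SYTL2 had 25.7%, 18.7% and 18.8% in siCTRL and 8.80%, 9.67% and 10.7% in siDNp63, while its normalized counts were 200 in siCTRL and 209 in siDNp63 on average. SYTL4 went from 43.7% ± 4.57 to 36.9% ± 1.16 of the sum (SD, n = 3), although the gene itself was called higher. The SYTL sum itself was 16.6 ± 1.83 TPM in siCTRL and 27.1 ± 1.64 TPM in siDNp63.

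RAB7B was a trace of its pair in both groups, 0.50% ± 0.02 in siCTRL and 0.055% ± 0.021 in siDNp63, the rest being RAB7A. In the RAB3 subfamily RAB3A went from 8.28% ± 0.42 to 4.87% ± 0.36 and RAB3B from 18.0% ± 1.11 to 22.9% ± 0.29, with RAB3D near 73.7% and 72.3%. RAB1A went from 60.1% ± 1.42 to 68.2% ± 3.11 of its pair with RAB1B, and RAB2A from 74.3% ± 2.34 to 81.5% ± 1.01 of its pair with RAB2B. The RAB27 pair kept overlapping shares, with RAB27A at 69.0% ± 1.38 in siCTRL and 70.0% ± 3.18 in siDNp63 (exact permutation p = 0.6, n = 3).

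**Figure D4:**
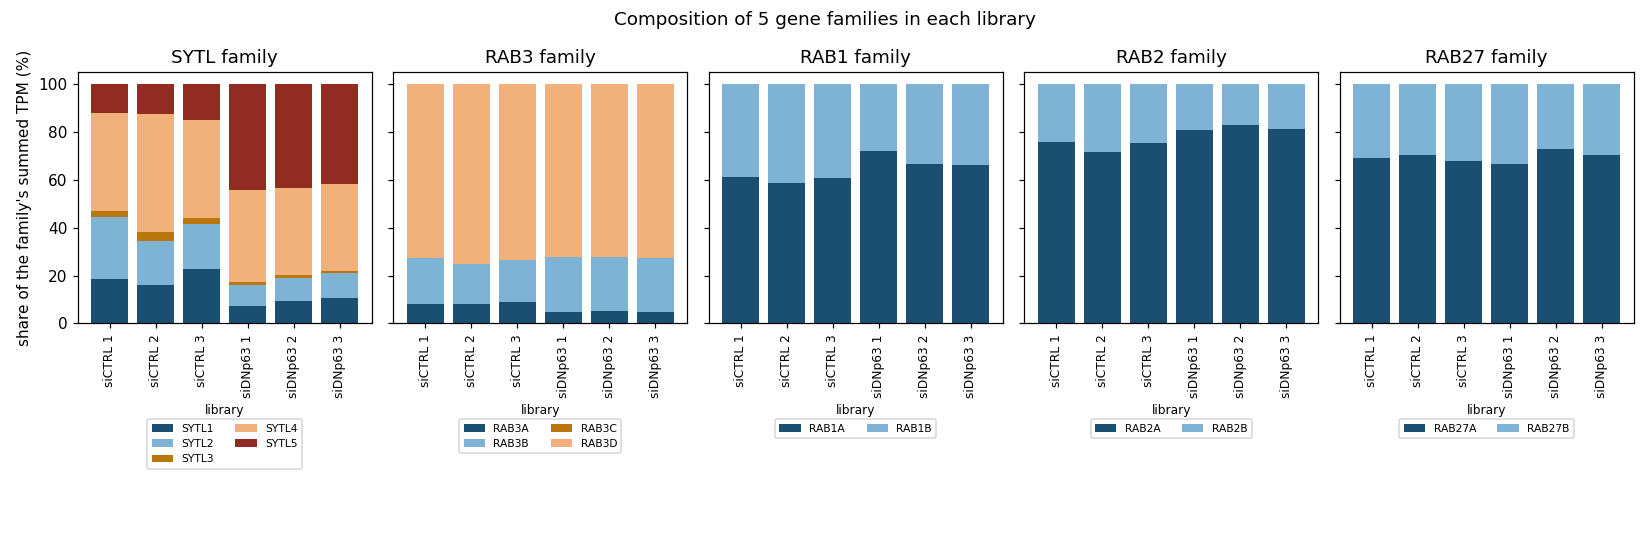
Share of each paralogue (y axis, percent of the summed TPM of its subfamily) in each of the 6 libraries (x axis) for the SYTL, RAB3, RAB1, RAB2 and RAB27 subfamilies. The SYTL5 block grows from between 12.1% and 14.9% in siCTRL to between 41.8% and 44.3% in siDNp63, while the RAB27 shares overlap between the groups.

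The other genes of the Rab cycle were called at a share near the background. Of 183 such genes in 5 lists, 178 were tested, 42 were higher and 22 lower (36% called, against 33.6% of all genes), with a median log2 fold change of 0.028. Among 43 GEFs, 12 were higher and 5 lower (39.5% called). RAB3IP, the exchange factor of RAB8A, rose by 0.73 (SE 0.06), DENND10 by 0.41 (SE 0.06) and ANKRD27, which loads RAB21 and binds RAB32, by 0.28 (SE 0.04). Of the RIN genes, which act on RAB5, RIN1 and RIN2 fell, and RIN3 was not called (0.45, SE 0.22, adjusted p = 0.156). RIN2 went from 2177, 2245 and 2352 normalized counts in siCTRL to 959, 956 and 938 in siDNp63 (log2 fold change -1.25, SE 0.05, adjusted p = 2.73e-06). RIN1 was low, at 84.2, 62.4 and 75.5 in siCTRL and 33.3, 30.8 and 26.7 in siDNp63 (-1.29, SE 0.20, adjusted p = 0.00185). DENND2C fell by 0.32 (SE 0.04).

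Among the 40 GAPs tested, 7 were higher and 7 lower (35% called, background 33.6%). RABGAP1 rose by 0.72 (SE 0.05), EVI5 by 0.42 (SE 0.06) and TBC1D23, a trans-Golgi adaptor, by 0.40 (SE 0.04), while TBC1D32 fell by 0.54 (SE 0.09), TBC1D2B by 0.45 (SE 0.07) and TBC1D7 by 0.33 (SE 0.06). The deepest fall called among the GAPs was that of SGSM1, a low gene with 47.7, 30.2 and 33.8 normalized counts in siCTRL and 12.8, 19.7 and 21.9 in siDNp63 (-1.02, SE 0.30, adjusted p = 0.0325). It was not called with any 1 library left out, where the log2 fold change lay between -1.17 and -0.80. The 13 escort, prenylation and GDI genes held 2 calls (15.4%). These were GDI2 at 0.13 (SE 0.04) and RABGGTA, a subunit of the prenyl transferase, at -0.39 (SE 0.08). Of 47 other effectors tested, 12 were higher and 8 lower (42.6% called). MYO5B, the myosin of RAB11 recycling endosomes, rose from 3520, 3619 and 3627 normalized counts to 5209, 5279 and 5369 (0.56, SE 0.04, adjusted p = 1.93e-05). RIMS2, which binds RAB3, rose by 0.52 (SE 0.06) and the golgin GCC2 by 0.54 (SE 0.07). EXPH5, the Slac2 gene outside the members, rose by 0.51 (SE 0.06). The RAB6 adaptor of dynein BICD2 fell by 0.49 (SE 0.04), MICALL1 of tubular recycling endosomes by 0.71 (SE 0.07) and RIMS3 by 0.43 (SE 0.05). MYO5A, which encodes the myosin Va named with MLPH and MYRIP, was called lower (-0.35, SE 0.04, adjusted p = 0.000388). MYO7A, for myosin VIIa, had too few counts to be tested.

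The exocyst, exocytic SNARE and synaptotagmin list held 10 genes called higher and 1 called lower of 35 tested (31.4% called, background 33.6%). SYT13 went from 298, 282 and 301 normalized counts in siCTRL to 855, 855 and 816 in siDNp63 (log2 fold change 1.52, SE 0.07, adjusted p = 5.20e-06). SYT1, a low gene, had 14.7, 16.6 and 11.3 in siCTRL and 35.8, 32.5 and 29.6 in siDNp63 (1.18, SE 0.26, adjusted p = 0.00921). SYT14 rose by 0.93 (SE 0.07), and EXOC6, the exocyst subunit that binds RAB11, by 0.49 (SE 0.05). The 1 gene called lower was STX3, the apical syntaxin, at -0.23 (SE 0.05). SNAP25, a low gene (-1.06, SE 0.36, adjusted p = 0.0558), and STX11 (-0.54, SE 0.18, adjusted p = 0.0501) were lower without being called. For both, the groups did not overlap.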

How the data were processed

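The sequenced RNA was poly(A)-selected and made into stranded libraries, per the labels. The submitters' processing notes name bcl2fastq 2.17.1.14, kallisto 0.46.2 and hg38, with no annotation release given in the sources used here. Expected counts, as deposited, are kallisto estimates that the authors summed by Ensembl gene, with no scaling. TPM values, as deposited, are the authors' levels per transcript length. All 12 columns were used. Members, lists and roles were chosen with earlier results of these data known.

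Expected counts were rounded here. Low genes were dropped by filterByExpr (minimum count 10) of edgeR 4.0.16, and TMM-scaled counts entered its quasi-likelihood test (two-sided, Benjamini-Hochberg over 17257 genes) in R 4.3.3, after a check on simulated counts. Normalized counts carry the same scaling. The SE is the absolute log2 fold change over the square root of F. TPM was used to compare genes. Fold and p thresholds follow the methods and results text of the study. Members given in full were those past both thresholds, the 10 smallest p-values per direction, RAB7B and SYTL5. Of each list up to 3 genes per direction, by p, were named. The other members named, and SGSM1, SYT1, RIN3, EXPH5, MYO5A, MYO7A, SNAP25 and STX11, were chosen after their values were seen. Alternatives were DESeq2 1.42.0, limma 3.58.1 (voom, and TPM plus 1 or 0.1), other scalings and filters, a replicate block, leaving out each library, stricter p, 1.5-fold and, added after seeing the data, length offsets. Names and coordinates are from the GRCh38 annotation, where 35538 identifiers matched. Low counts carry large counting error at 35716277 to 52598831 counts per library.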

Additional observations from a re-analysis of the deposited data

How the results depend on the processing

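Of the 28 called members, 14 kept their call in every alternative that tested them, namely SYTL5, MLPH, MYRIP, RAB3B, RAB12, RAB1A, RAB32, RAB3D, RAB40B, RAB23, RAB2A, RAB10, RAB18 and RAB7B. RAB7B was not tested where 10 counts were required in every library. The number of lower members fell from 8 to 5 with DESeq2, 5 without a filter and 3 with length offsets, and rose to 13 with library size alone. The share of all genes called lower went from 15.2% to 8.59% with DESeq2 and 8.44% without a filter. These last shares were taken over 28097 genes instead of 17257. It was 8.05% with length offsets and 23.9% with library size alone. The number of higher members fell from 20 to 13 on log2(TPM + 1) and 12 on log2(TPM + 0.1), where 9.67% and 9.72% of all genes were higher. At an adjusted p under 0.005 there were 13 higher and 2 lower, against 10.2% and 6.59% of all genes. At 1.5-fold, 5 members passed both thresholds instead of 3. Leaving out 1 library gave 14 to 21 higher and 4 to 10 lower members. Of all genes 14% to 20.5% were then higher and 10.5% to 17.9% lower. The lower members numbered 4 without siCTRL replicate 1, siCTRL replicate 2 or siDNp63 replicate 3, and 5 without siCTRL replicate 3. 3 members passed both thresholds each time. The median log2 fold change of the members was 0.016 to 0.053 with 1 library left out, -0.070 with library size alone, -0.0485 on log2(TPM + 1), -0.0543 on log2(TPM + 0.1) and 0.051 with length offsets. The cause was not tested.

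For the other Rab cycle genes, the 42 higher and 22 lower became 27 and 47 with library size alone. They became 24 and 14 with length offsets, and 23 and 12 at an adjusted p under 0.005. In the same order, the shares of all genes were 13.5% and 23.9%, 14.1% and 8.05%, and 10.2% and 6.59%. There were 12 higher on log2(TPM + 1) and 13 on log2(TPM + 0.1), against 9.67% and 9.72% of all genes. Leaving out 1 library gave 32 to 49 higher and 18 to 34 lower, the last without siDNp63 replicate 1. Of all genes 14% to 20.5% were then higher and 10.5% to 17.9% lower. The direction of RAB27A turned to 0.0143 and 0.0148 on the TPM scales and 0.11 with length offsets, and that of RAB27B to 0.046 with length offsets. SYTL2 turned to -0.0255 with library size alone, -0.29 on log2(TPM + 1), -0.38 on log2(TPM + 0.1) and -0.31 with length offsets, and lay between -0.0051 and 0.10 with 1 library left out, negative without siCTRL replicate 2.

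With the replicate number as a block, 16 members were higher and 5 lower, against 16.1% and 12.6% of all genes. The numbers did not pair the libraries: deviations from the group means correlated at -0.01, 0.02 and 0.03 between same-numbered libraries, and 3 of 6 libraries correlated best with their own number.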
